A study of Homo sapiens with 4 samples.

Results

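The comparison described here sets the library of KBM5 cells that received IM together with DSF (IM-DSF) against the library of KBM5 cells that received IM alone, gene by gene, to show what differed when DSF was added to IM. KBM5 is an established human line from the myeloid blast crisis of chronic myeloid leukemia and carries the BCR-ABL fusion kinase. The other libraries of the series come from KBM5 cells given DSF alone and from untreated cells (CTR), so that each of the 4 groups holds 1 library, made from RNA with a stranded mRNA kit. The labels name the tissue as blood and give no dose, exposure time or culture, and they do not spell out the codes; IM is read here as imatinib and DSF as disulfiram. A single line in culture stands for the disease, and BCR-ABL is the line's own in all 4 groups. Of 50868 genes in the table, 11004 had a mean of at least 1 FPKM (fragments per unit of gene length and of sequencing depth) over the 4 libraries and were compared; 39864 were not. At the edge of this filter, ZSCAN32 entered with a mean of 1.00046 FPKM and EPM2A stayed out at 0.999914. A gene was called higher or lower where log2(FPKM + 1) in IM-DSF and in IM lay at least 1 unit apart, a rule of size and not a test. With 1 library a side no p-value is given, and the 95% intervals given with folds cover counting error only.

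Imatinib occupies the ATP site of the ABL kinase and so turns off the STAT5, ERK and survival signals that BCR-ABL sends. Disulfiram is a drug against alcohol dependence that inhibits aldehyde dehydrogenase, and its metabolite bound to copper is known to aggregate NPL4, a partner of the p97 segregase that hands ubiquitinated proteins to the proteasome. The study's title adds GPX4, the enzyme that uses glutathione to reduce lipid hydroperoxides and thereby holds back ferroptosis, an iron-dependent form of cell death. In myeloid cells the azurophil granules are relatives of the lysosome, and both hold acid hydrolases.

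The IM-DSF library was the shallowest, with a denominator of 12.4 M fragments, against 15.8 M for IM, 14.7 M for DSF and 14.5 M for CTR (M is 1e+06). Genes at or above 1 FPKM numbered 11238 in IM-DSF and 11153 in IM, and mitochondrial genes held 32.0% and 30.1% of the summed FPKM. The identity of the line was checked against markers. Of 59 granulocyte and monocyte markers, 45 passed the filter, and their summed level was 4350 FPKM in IM-DSF and 4346 in IM, with 3471 in DSF and 2785 in CTR; ELANE, neutrophil elastase, alone had 619 and 589.8 FPKM in IM-DSF and IM. MPO, myeloperoxidase, was low (2.79 and 3.49 FPKM), and the progenitor markers CD34 and KIT were listed at 0 in both, while MYB had 32.9 and 32.6 FPKM. The erythroid sum was 35.1 FPKM in IM-DSF and 29.4 in IM, nearly all of it the transferrin receptor TFRC, and 15 of 19 erythroid markers were listed at 0 in both. The lymphoid sum was 14.1 and 12.6 FPKM with 14 of 20 at 0, and the megakaryocyte sum was 8.61 and 8.65 FPKM with 6 of 13 at 0.

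The genes that the study's title turns on lay within the size rule. GPX4 (ENSG00000167468; GRCh38.p14, chromosome 19, 1103926 to 1106791) had 17.6 FPKM in IM-DSF and 19.7 in IM, with 20.1 in DSF and 19.6 in CTR, and the ratio of IM-DSF to IM was 0.893 (95% interval 0.789 to 1.01). ABL1 was at 34.0 FPKM in IM-DSF and 35.1 in IM. BCR, the fusion partner, was higher, at 5.93 FPKM in IM-DSF against 3.99 in IM, 4.16 in DSF and 4.22 in CTR, but it overlaps another gene on its strand. In bulk RNA, fewer cells that make a transcript and less of it per cell cannot be told apart, here and in every result below.

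By the size rule 77 genes were higher in IM-DSF than in IM (0.7% of the 11004 compared) and 114 were lower (1.04%), together 191 (1.74%). In DSF against CTR, the pair that shares no library with this one, 60 genes were higher (0.545%) and 63 lower (0.573%). Protein-coding genes were called about as often in both directions, 63 higher and 54 lower of 9365, while called pseudogenes were mostly lower, 9 higher and 52 lower of 936. Over all genes the differences were centered on 0, with a median of -0.00127, with 49.7% of genes higher and 50.3% lower. A count interval could be set for 185 of the 191 folds, and in 184 of them it left out 1. The genes were picked by size from the same 2 values, so this count does not support the calls.

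A difference between IM-DSF and IM can come from either library, so each called gene was sorted by which of the 4 libraries stood apart, taken at the widest gap between the ordered log2 values. Among the 77 higher genes, IM-DSF lay above the other 3 libraries in 33, and IM lay below the other 3 in 30; in the second kind the widest gap lies between IM and the other libraries, IM-DSF included. The others were 7 genes low in both CTR and IM, 6 low in both DSF and IM and 1 low in CTR and DSF. Of the 114 lower genes, IM-DSF lay below the other 3 in 61, of which 39 were pseudogenes and 17 protein-coding. IM lay above the other 3 in 20, CTR and IM-DSF lay below in 17, DSF and IM-DSF lay below in 15, and DSF above in 1. Hence only part of the calls are levels seen in IM-DSF and in no other library.

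**Figure D1:**
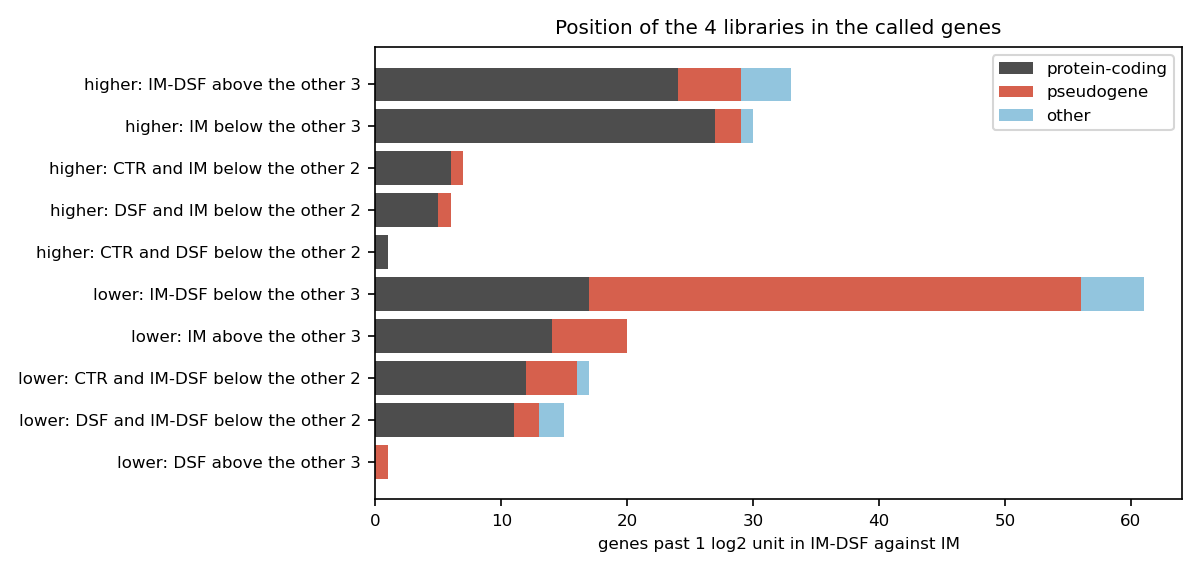
Number of genes past 1 log2 unit in IM-DSF against IM (horizontal axis), by the library or pair of libraries that stood apart from the rest (rows) and by gene class (colors). The longest bar, 61 genes with IM-DSF below the other 3, is made up of 39 pseudogenes, 17 protein-coding genes and 5 others.

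Genes with the levels highest in IM-DSF alone had varied roles. The 20 highest protein-coding genes without a same-strand overlap or a read-through name, of 36 such genes, differed by 1.18 to 1.99 log2 units, and IM-DSF stood above the other 3 libraries in 9 of them. TSN, translin, a nucleic acid binding protein that with its partner TRAX cleaves RNA, had 12.7 FPKM in IM-DSF and 3.46 in IM, with 4.77 in DSF and 4.81 in CTR (3.67-fold, 95% interval 3.16 to 4.27). SEPTIN2, a filament-forming GTPase of cytokinesis, had 17.2 FPKM in IM-DSF and 6.90 in IM, with 7.16 in DSF and 6.97 in CTR (2.48-fold, 2.28 to 2.71). In both genes the 3 libraries other than IM-DSF lay within a narrow band. YTHDF3, a reader of methylated adenosine in mRNA, had 7.72 FPKM in IM-DSF and 2.38 in IM, with 2.58 in DSF and 2.57 in CTR. GPD1L, a glycerol-3-phosphate dehydrogenase, had 8.21 FPKM in IM-DSF and 2.77 in IM, with 2.64 in DSF and 2.65 in CTR. FAM53C (8.25 FPKM in IM-DSF and 2.78 in IM), APOBR, a receptor of monocytes for apolipoprotein B (10.1 and 3.44), TBXA2R, the thromboxane receptor (6.80 and 2.43), and RHOQ, a GTPase of membrane traffic (6.22 and 2.19), had the same pattern. S100A9, a calcium-binding alarmin subunit of neutrophils and monocytes, completed the 9 with 6.41 FPKM in IM-DSF and 2.08 in IM, with 2.48 in DSF and 2.03 in CTR; its short transcript and few fragments leave a wide interval (3.08-fold, 1.77 to 5.56).

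In 7 of the 20 the IM library was the one apart, and IM-DSF grouped with DSF and CTR. SUMO3, a ubiquitin-like modifier, had 56.8 FPKM in IM-DSF and 20.5 in IM, with 63.0 in DSF and 62.4 in CTR (2.77-fold over IM, 2.56 to 3.004). ERCC6L, the PICH translocase of mitotic chromosome bridges, had 2.39 FPKM in IM-DSF and 0.206 in IM, with 3.20 in DSF and 3.72 in CTR, the widest fold of the 20 (11.6, with an interval of 6.78 to 22.2). RALB, a GTPase of exocytosis, had 7.55 FPKM in IM-DSF and 2.45 in IM, with 7.80 in DSF and 7.68 in CTR. The phosphatase PTP4A3 (4.30 FPKM in IM-DSF and 0.903 in IM), the DNA-binding protein PURA (3.54 and 0.823), the inositol phosphate kinase PPIP5K1 (2.51 and 0.498) and the mitochondrial import cochaperone GRPEL2 (4.59 and 1.48) were placed likewise. In these 7 genes the IM library was the low one, and whether another IM culture would be as low cannot be known from 1 library.

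For 4 of the 20, libraries stood apart in pairs. PRNP, the prion protein, a copper-binding protein of the cell surface (chromosome 20, 4686236 to 4701590), had the largest difference of the 20, with 9.50 FPKM in IM-DSF and 1.64 in IM, and with 6.97 in DSF and 2.77 in CTR (5.79-fold, 4.49 to 7.55). YWHAB, a 14-3-3 adaptor that binds phosphorylated proteins, had 32.6 FPKM in IM-DSF and 11.6 in IM, with 26.8 in DSF and 9.31 in CTR. Both libraries with DSF were thus above both libraries without it for these genes. The other 5 members of the 14-3-3 family past the filter were lower in IM-DSF, by -0.07 (YWHAH) to -0.21 (YWHAE) log2 units, so the family did not share YWHAB's direction. Of these 5, YWHAH passed the size rule downward in DSF minus CTR, where 0.573% of all genes did. SNX10, a sorting nexin of endosomes, was high in IM-DSF (13.01 FPKM) and CTR (9.64) and low in IM (3.70) and DSF (3.04), and PDPR, a subunit of pyruvate dehydrogenase phosphatase, had 6.31 and 5.19 FPKM in IM-DSF and CTR against 1.85 and 2.11 in IM and DSF.

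The largest difference downward among protein-coding genes free of overlap was that of BCL2L11, which encodes the BH3-only death protein BIM, a mediator of the killing of BCR-ABL cells by kinase inhibitors. BCL2L11 (chromosome 2, 111119378 to 111168447) had 1.02 FPKM in IM-DSF and 7.32 in IM, with 1.64 in DSF and 3.99 in CTR (0.139 times IM, 0.109 to 0.174; -2.04 log2 units). The 2 libraries with DSF were the 2 lowest and IM was the highest; the gap between DSF and CTR, at -0.92 log2 units, stayed within the size rule. Of the BCL2 family as a whole, 13 of 15 measured members were lower in IM-DSF and 2 higher, where 50.3% of all genes were lower. The median was -0.24, and 1 passed the rule, BCL2L11 itself, where 1.74% of all genes did. Death-promoting members were lower in 9 of 11 cases, among them PMAIP1, which encodes NOXA (8.99 FPKM in IM-DSF and 11.9 in IM), and BNIP3L, a mitophagy receptor that overlaps another gene (5.49 and 7.96). The 4 measured survival members were also lower, including BCL2L1, which encodes BCL-XL (2.73 and 3.70 FPKM). BCL2L13 went the other way, with 7.52 FPKM in IM-DSF and 5.42 in IM.

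Of the 20 lowest genes, from 26 eligible, 8 were low in IM-DSF alone. RASSF2, a RAS-binding adaptor of the Hippo kinases, had 8.69 FPKM in IM-DSF and 31.9 in IM, with 30.6 in DSF and 32.6 in CTR (0.273 times IM, 0.2498 to 0.298). SLC16A1, the lactate and pyruvate transporter MCT1, had 4.80 FPKM in IM-DSF and 15.2 in IM, with 18.5 in DSF and 21.8 in CTR (0.316 times, 0.278 to 0.358). HJURP, the chaperone that loads the centromeric histone CENP-A, had 1.95 FPKM in IM-DSF and 7.12 in IM, with 7.58 in DSF and 8.05 in CTR. In these 3 genes IM was close to DSF and CTR, and IM-DSF lay well below. RBM38, an RNA-binding protein, had 3.33 FPKM in IM-DSF and 12.5 in IM, with 6.49 in DSF and 7.53 in CTR, so that IM was the highest as well. The ceramidase ACER3 (1.34 FPKM in IM-DSF and 3.85 in IM), the mitochondrial ribosomal protein MRPL34 (1.49 and 7.40), NDUFA3 of respiratory complex I (3.88 and 10.2) and the retrogene PGAM4 (3.99 and 9.76) made up the 8. MRPL34, NDUFA3 and PGAM4 have short transcripts, a class of genes that was lower as a whole.

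Another 5 of the 20 lowest were low in both libraries with DSF. MKI67, the proliferation antigen Ki-67 that coats mitotic chromosomes, had 7.76 FPKM in IM-DSF and 27.8 in IM, with 11.0 in DSF and 24.5 in CTR (0.2796 times IM, 0.263 to 0.297). ZKSCAN1 (2.50 FPKM in IM-DSF and 9.38 in IM), GMFB, a regulator of actin branches (0.872 and 3.92), and ANKRD52, a subunit of protein phosphatase 6 (5.43 and 14.9), joined it and BCL2L11. In 4 more the IM library was the high one: DUSP3, a dual-specificity phosphatase, had 3.38 FPKM in IM-DSF and 11.0 in IM, with 2.38 in DSF and 1.69 in CTR, and FAM217B (1.18 and 7.39 FPKM in IM-DSF and IM) and CCDC137 (2.39 and 8.19) were placed in the same way. MAPK14, the stress kinase p38 alpha, was low in IM-DSF (7.89 FPKM) and CTR (8.65) and high in IM (22.5) and DSF (21.1), and SZRD1 and ZNF672 shared that order.

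**Figure D2:**
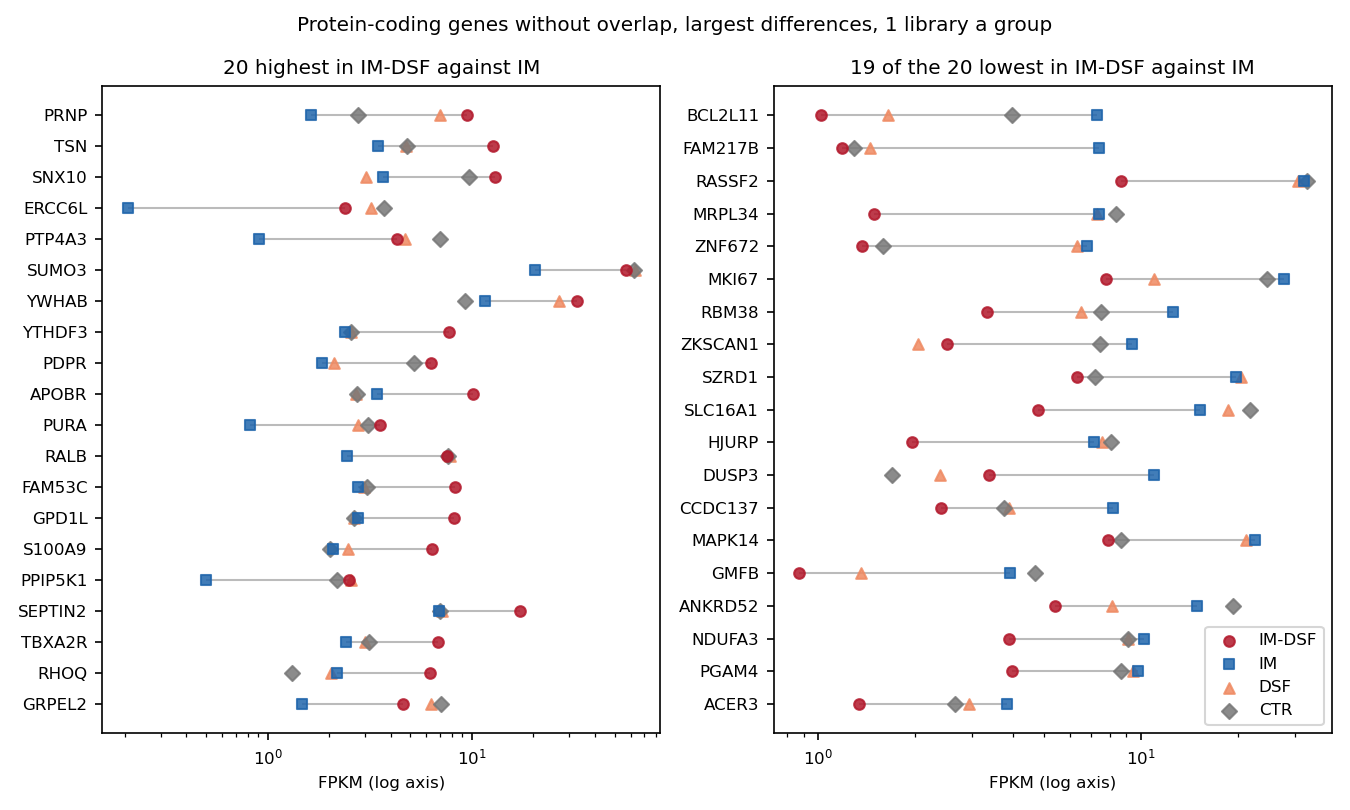
FPKM on a log axis (horizontal) of the 20 highest (left panel) and 19 of the 20 lowest (right panel) in IM-DSF against IM among protein-coding genes with no same-strand overlap and no read-through or clone-style name, 1 point per library, with a line joining IM-DSF (circle) and IM (square). TSN, YTHDF3 and SEPTIN2 show IM-DSF apart from 3 clustered libraries, SUMO3 and RALB show IM apart, and BCL2L11 lies at 1.02 in IM-DSF and at 7.32 in IM.

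In DSF against CTR, where 1.12% of genes were called, 14 of the 191 genes passed with the same sign as here, 15 with the opposite sign and 162 stayed within the rule. Among those 14, all protein-coding, PRNP, YWHAB, ANKRD52, GMFB, ZKSCAN1 and MKI67 were free of overlap. The median of DSF minus CTR was 0.02 over the 77 higher genes and -0.03 over the 114 lower genes, so as a group they did not lean in that pair.

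Several called genes share a strand and a span with a neighbor, and the sources do not say how their reads were shared out. Of the 117 protein-coding calls 55 overlapped another gene in span and 39 in exons, and 12 had read-through names, which join the symbols of neighbors. Read-through genes passed the size rule in 12 of 40 cases (30%), against 1.74% of all genes, with 2 higher and 10 lower. They also passed often in DSF against CTR, with 5 of the 40 higher and 4 lower, against 1.12% of all genes. FBXO34 (4.61 FPKM in IM-DSF, 0.281 in IM), GOLGA8A (17.9 and 3.36) and RPL17-C18orf32 (22.03 and 5.03) were among the higher of these uncertain genes. URGCP-MRPS24 was listed at 0 in IM-DSF and had 21.5 FPKM in IM, and CORO7-PAM16 had 0.384 and 3.39 FPKM. MDM2, a ubiquitin ligase, overlaps other genes too and had 3.63 FPKM in IM-DSF and 1.23 in IM.

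Short transcripts were lower in IM-DSF, and this touches several gene groups below. Across 9365 protein-coding genes the difference went up with the longest annotated transcript at Spearman's rho = 0.22 in IM-DSF minus IM, against 0.02 in DSF minus CTR; genes share both libraries and are not independent replicates. Protein-coding genes of over 500 and up to 1000 bases had a median difference of -0.15 (256 genes) and those over 4000 bases one of 0.03 (4141 genes). In pseudogenes the median was -0.33 at up to 500 bases (269 genes, of which 35 passed the size rule downward and 3 upward) and 0.08 over 4000 bases (40 genes). Over all genes 1.04% passed downward and 0.7% upward. In DSF minus CTR the pseudogenes had a median of -0.01 at up to 500 bases and of 0.15 over 4000 bases. Long pseudogenes were thus higher in both pairs, and the low short ones were seen in IM-DSF minus IM. IM-DSF was also the shallowest library, and the part of depth, RNA length or library preparation in these values was not tested.

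**Figure D3:**
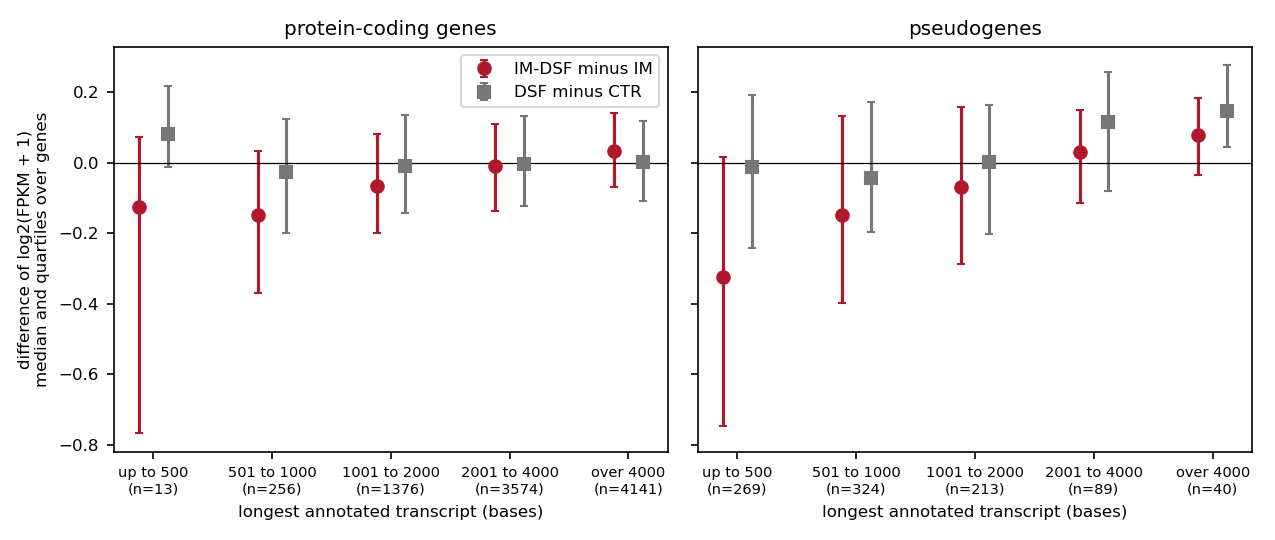
Median difference of log2(FPKM + 1), with bars from the lower to the upper quartile over genes, by length of the longest annotated transcript in bases, for protein-coding genes (left) and pseudogenes (right); circles are IM-DSF minus IM and squares DSF minus CTR. The pseudogene circles climb with length, from -0.33 in the shortest to 0.08 in the longest. The pseudogene squares lie at -0.01 and 0.15 in those bins. The protein-coding circles lie at -0.13 in the 13 shortest genes and -0.15 in the next bin and climb from there to 0.03. The squares of protein-coding genes lie close to 0 apart from the 13 shortest.

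Processed pseudogenes, the intronless copies of spliced mRNAs, held the most one-sided calls, 3 higher and 44 lower of 675. Of all genes 0.7% were called higher and 1.04% lower. A parent gene was named for 43 of the 44, giving 42 parents, 14 of them for ribosomal proteins. These 43 were picked as past the size rule downward, so their median of -1.19 follows from the selection and is no contrast with the parents. The parents, not picked by size, had a median of -0.20, and 33 of the 42 were lower, where 50.3% of all genes were. Over all 675 processed pseudogenes the median was -0.19. By the size rule 1 parent was lower, RPL37 (67.2 FPKM in IM-DSF and 151 in IM, with 134 in DSF and 73.8 in CTR), which overlaps another gene. And 1 was higher, RPL29 (195 and 91.0, with 93.1 in DSF and 147 in CTR), opposite to its pseudogene. In both parents IM-DSF lay on the side of CTR, and IM on that of DSF. Both are named after their values were seen. RPS26P19 had 0.230 FPKM in IM-DSF and 47.3 in IM, with 56.1 in DSF and 51.0 in CTR, where its parent RPS26 had 7.15 and 8.55 FPKM in IM-DSF and IM. HSPB1P1 had 0.942 and 8.65 FPKM, and its parent HSPB1, the small heat shock protein, 98.5 and 143. Reads of such copies are close to those of the parent, so their levels are uncertain, and no pseudogene is read here as a transcript of its own.

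Lysosomal genes leaned higher in IM-DSF than in IM. Of 72 measured members, 60 were higher and 12 lower, where 49.7% of all genes were higher. The median difference was 0.15, and 1 passed the size rule, where 1.74% of all genes did. After differences were centered on genes in the same bin of transcript length, 61 were higher with a median of 0.16. In DSF minus CTR the same list had 43 higher and a median of 0.06. Hydrolases of the lumen had the highest medians before centering: 13 of 14 glycosidases, 14 of 17 lipases, nucleases and sulfatases and 9 of 10 proteases were higher, with medians of 0.22, 0.22 and 0.15. In DSF minus CTR 12, 13 and 4 of them were higher, with medians of 0.32, 0.17 and -0.05. The glycosidases thus leaned higher in both pairs, and more so in DSF minus CTR.

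DNASE2, the acid nuclease that digests engulfed DNA, had 13.1 FPKM in IM-DSF and 5.91 in IM, with 2.09 in DSF and 1.75 in CTR (2.22-fold over IM, 1.88 to 2.63). FUCA1, the fucosidase of glycoprotein breakdown, had 42.3 FPKM in IM-DSF and 22.7 in IM, with 12.2 in DSF and 8.89 in CTR (1.86-fold, 1.69 to 2.05). ASAH1, acid ceramidase, had 27.9 FPKM in IM-DSF and 19.6 in IM, with 12.2 in DSF and 10.4 in CTR. In these 3 enzymes both IM libraries lay above both libraries without IM, and IM-DSF was the highest. PSAP, the precursor of the saposins (103 FPKM in IM-DSF and 80.8 in IM), LIPA, acid lipase (18.0 and 14.3), and the cathepsins CTSS (14.5 and 10.2) and CTSO (6.91 and 4.71) were higher by less.

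Membrane proteins and the proton pump had smaller medians than the hydrolases before centering on length. Of 14 membrane proteins 12 were higher (median 0.11), including LAMP1, which lines the lysosome (58.7 FPKM in IM-DSF and 51.4 in IM), while the calcium channel MCOLN1 had 2.50 and 3.26 FPKM. After centering, the median was 0.16 in membrane proteins and 0.15 in proteases, so these did not differ. Of 15 subunits of the V-ATPase, which acidifies the lysosome, 10 were higher and 5 lower (median 0.08). ATP6V0C had 40.6 FPKM in IM-DSF and 26.2 in IM but overlaps neighbors, and ATP6V1D had 2.09 and 3.29. TFEB, the transcription factor of the lysosomal program, was level at 1.61 and 1.599 FPKM, and TFE3 had 6.51 and 6.17. Autophagy genes as a list showed no lean, with 16 of 36 higher and a median of -0.01. MAP1LC3B, the LC3 protein of autophagosomes, had 4.27 FPKM in IM-DSF and 1.70 in IM, with 3.57 in DSF and 3.27 in CTR (2.51-fold, 2.04 to 3.09), so the IM library was the low one, and GABARAPL1 had 5.56 and 3.81 FPKM.

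**Figure D4:**
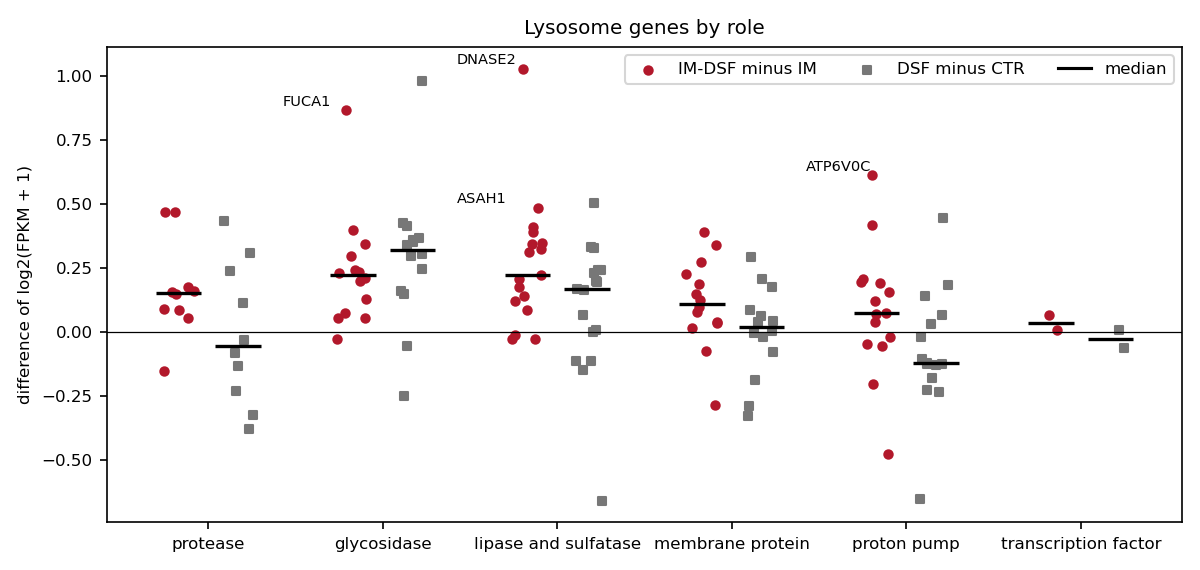
Difference of log2(FPKM + 1) (vertical) for each measured lysosomal gene by role (horizontal), with IM-DSF minus IM as circles, DSF minus CTR as squares and the median as a bar. Circles of the 3 hydrolase groups lie mostly above 0, with DNASE2 at 1.03 and FUCA1 at 0.87, and those of the proton pump lie on both sides.

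The letters TCACGTG, the core of the site that TFEB and its relatives bind, were looked for on both strands in the 250 bases before the transcription start, in promoters from RefSeq (GRCh38.p14). Among promoters matched to 51 measured lysosomal genes, 14 of 72 held the letters (19.4%), against 3.31% of 35116 promoters in RefSeq's table; of the promoters of autophagy genes, 2 of 38 did (5.26%). The median difference was 0.16 in the lysosomal genes that have the letters and 0.14 in those that do not. The sequences are those of a glycosidase gene and a membrane protein gene that were higher and a channel gene that was lower, with the letters in capitals. A match is a description of these bases and says nothing of binding.
GAA chr17:80101331-80101580 (plus strand): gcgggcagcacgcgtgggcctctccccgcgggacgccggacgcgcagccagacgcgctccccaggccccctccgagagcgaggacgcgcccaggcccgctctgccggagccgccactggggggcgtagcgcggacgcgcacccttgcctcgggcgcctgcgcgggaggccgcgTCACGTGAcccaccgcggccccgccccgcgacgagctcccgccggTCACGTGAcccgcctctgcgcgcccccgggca
LAMP1 chr13:113296989-113297238 (plus strand): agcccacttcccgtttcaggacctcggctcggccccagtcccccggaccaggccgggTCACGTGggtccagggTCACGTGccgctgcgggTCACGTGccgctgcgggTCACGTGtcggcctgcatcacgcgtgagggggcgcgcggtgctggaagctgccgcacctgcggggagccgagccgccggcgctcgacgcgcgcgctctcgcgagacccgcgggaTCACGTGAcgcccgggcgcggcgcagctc
MCOLN1 chr19:7522374-7522623 (plus strand): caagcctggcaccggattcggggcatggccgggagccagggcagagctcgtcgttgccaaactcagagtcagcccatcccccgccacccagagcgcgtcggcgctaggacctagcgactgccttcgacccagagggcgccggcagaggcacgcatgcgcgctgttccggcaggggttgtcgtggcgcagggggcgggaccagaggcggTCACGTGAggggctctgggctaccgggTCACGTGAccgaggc
GAA, acid glucosidase, had 10.5 FPKM in IM-DSF and 8.03 in IM, with 5.04 in DSF and 2.06 in CTR, and carries the letters at 2 places.

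Granulocyte and monocyte genes divided by role. Of 45 measured, 26 were higher and 19 lower (median 0.05), where DSF minus CTR had 39 higher and a median of 0.21. Surface receptors were higher in 12 of 16 cases (median 0.17), with CD36, the scavenger receptor, at 3.09 FPKM in IM-DSF and 1.71 in IM and the monocyte membrane protein MS4A6A at 9.31 and 5.81. Effector genes were higher in 8 of 9 (median 0.24), among them S100A9. Granule genes were mixed, 5 of 12 higher (median -0.08). LYZ, lysozyme, had 599 FPKM in IM-DSF and 399 in IM, with 217 in DSF and 154 in CTR (1.5-fold over IM, 1.46 to 1.54), while the azurophil proteases CTSG (191 and 260 FPKM in IM-DSF and IM) and PRTN3 (989 and 1239) were lower. Myeloid transcription factors were lower in 7 of 8 cases (median -0.14), with CEBPD at 27.6 FPKM in IM-DSF and 39.8 in IM and SPI1, which encodes PU.1, at 52.7 and 70.1. The median of the whole list turned below 0, to -0.04 at its lowest, in some alternative settings.

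Most measured targets of the pathways below BCR-ABL had lower values in IM-DSF than in IM. Of 13 STAT5 targets 11 were lower and 0 passed the size rule (median -0.21), where 50.3% of all genes were lower and 1.74% passed. No test was run, so this 0 is a count by size. The same list leaned lower in DSF minus CTR too, with 11 of 13 lower (median -0.11). PIM1, a survival kinase, had 2.63 FPKM in IM-DSF and 4.67 in IM, with 8.18 in DSF and 16.05 in CTR, and ID1, an inhibitor of differentiation, had 1.73, 3.21, 5.80 and 8.02 FPKM in the same order. The 4 libraries were thus ranked alike in both genes. Of 11 ERK targets 9 were lower (median -0.25), including all 4 feedback genes, with the phosphatase DUSP6 at 2.94 FPKM in IM-DSF and 3.92 in IM, while the AP-1 subunits JUN (7.26 and 5.74) and FOS (3.34 and 2.61) were higher. Of 12 promoters of STAT5 targets 1 held TTCNNNGAA (8.33%, against 6.57% of all promoters).

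Genes of replication and mitosis were lower in small steps. In the G1/S list 35 of 41 genes were lower (median -0.11), including UHRF1, which maintains DNA methylation and overlaps another gene (10.1 FPKM in IM-DSF and 15.8 in IM), the licensing factor CDT1 (13.5 and 19.3) and thymidine kinase TK1 (8.62 and 12.4). In the G2/M list 33 of 39 were lower (median -0.12) and 1, MKI67, passed the size rule, at -1.71. Over all genes 50.3% were lower and 1.74% passed. The next G2/M gene, CKS2, a cyclin-dependent kinase subunit, had 90.6 FPKM in IM-DSF and 128 in IM, and BUB1B, a spindle checkpoint kinase, was higher at 24.3 and 18.8. In DSF minus CTR the G2/M median was -0.13 and the G1/S median -0.04. MKI67 therefore stood far from the other genes of the G2/M list. Outside that list, the mitotic genes HJURP (-1.46) and ERCC6L (1.49) also passed the size rule, in opposite directions.

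The letters TTTGAA, the cell cycle homology element of mitotic promoters, were held by 20 of 40 G2/M promoters (50%), against 13.3% of all promoters of the same length. The median difference was -0.13 with the letters and -0.11 without. The promoters of MKI67 and CKS2 are shown because they have the same letters (capitals, either strand) and very different values.
MKI67 chr10:128126424-128126673 (minus strand): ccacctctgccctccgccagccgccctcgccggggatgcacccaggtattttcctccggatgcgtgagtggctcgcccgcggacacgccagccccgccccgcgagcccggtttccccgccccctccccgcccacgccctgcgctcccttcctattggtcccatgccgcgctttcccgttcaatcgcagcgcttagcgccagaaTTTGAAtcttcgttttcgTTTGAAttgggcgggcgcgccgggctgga
CKS2 chr9:89310945-89311194 (plus strand): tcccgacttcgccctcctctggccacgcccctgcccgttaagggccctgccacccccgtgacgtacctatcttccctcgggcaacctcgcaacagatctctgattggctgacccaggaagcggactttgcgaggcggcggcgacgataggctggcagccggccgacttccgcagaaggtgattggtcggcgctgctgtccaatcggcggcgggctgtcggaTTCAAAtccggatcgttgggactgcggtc

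Heat shock genes were lower in IM-DSF, 26 of 35, with a median of -0.21, which was -0.20 after centering on transcript length and stayed below 0 in every alternative setting run. HSPA1B, inducible HSP70, had 7.11 FPKM in IM-DSF and 12.2 in IM, with 11.7 in DSF and 13.7 in CTR (0.584 times IM, 0.496 to 0.686), although it overlaps a neighbor and has a near-identical copy. DNAJB1, its cochaperone, had 10.3 FPKM in IM-DSF and 16.5 in IM, with 17.4 in DSF and 19.5 in CTR. HSP90AA1, inducible HSP90, had 102 FPKM in IM-DSF and 138 in IM, with 164 in DSF and 231 in CTR. The DSF minus CTR median of the list was -0.22, so the list leaned the same way in both pairs by a like amount. The letters GAANNTTC, where 2 units of the heat shock element face each other, were in 12 of 46 promoters of these genes (26.1%), against 5.78% of all promoters. The median difference was -0.27 in the genes with the letters and -0.11 in those without; the promoters of HSPA1B and DNAJB1, the lowest of the list, show them in capitals.
HSPA1B chr6:31827488-31827737 (plus strand): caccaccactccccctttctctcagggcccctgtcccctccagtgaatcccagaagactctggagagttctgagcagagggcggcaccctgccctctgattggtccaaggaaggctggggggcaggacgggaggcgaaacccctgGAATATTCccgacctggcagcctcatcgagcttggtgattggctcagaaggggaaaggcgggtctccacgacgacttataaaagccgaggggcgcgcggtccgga
DNAJB1 chr19:14518398-14518647 (minus strand): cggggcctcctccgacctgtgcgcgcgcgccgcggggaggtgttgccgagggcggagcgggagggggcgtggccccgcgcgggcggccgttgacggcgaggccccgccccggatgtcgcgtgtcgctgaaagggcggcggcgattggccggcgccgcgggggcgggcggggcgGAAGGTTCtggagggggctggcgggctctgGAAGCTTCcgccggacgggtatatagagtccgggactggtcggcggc

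The other stress lists moved less. Of 42 proteasome genes 31 were lower (median -0.08), among them the assembly factor POMP (44.0 FPKM in IM-DSF and 60.3 in IM), and PSMF1, a proteasome inhibitor that overlaps neighbors, was higher (7.40 and 4.40). For the same 42 genes, DSF minus CTR had 33 lower (median -0.13). The 16 genes of NPL4, p97 and their partners, the machinery that disulfiram's metabolite is known to bind, had a median of 0.04, with UFD1 at 11.5 FPKM in IM-DSF and 13.3 in IM and UBXN4 at 33.4 and 28.2. The 8 measured aldehyde dehydrogenases, the drug's classical target family, had a median of -0.06 with differences from -0.22 (ALDH9A1) to 0.16 (ALDH4A1). Of 31 genes of the integrated stress response 21 were lower (median -0.08), and the lean sat in amino acid supply, where 15 of 17 were lower (median -0.18). Those 17 also leaned lower in DSF minus CTR, 13 of them (median -0.14). SLC1A5, a glutamine transporter, had 30.01 FPKM in IM-DSF and 49.3 in IM, with 69.0 in DSF and 77.2 in CTR, and MTHFD2, of mitochondrial folate metabolism, had 15.3 and 24.6 FPKM in IM-DSF and IM. Regulators such as the pseudokinase TRIB3 (4.69 and 3.69 FPKM) had a median of 0.04. Of 23 genes of the unfolded protein response 15 were lower (median -0.07), led by XBP1 (5.60 and 8.39 FPKM) and MANF (7.44 and 10.8). Of the same 23, 14 were lower in DSF minus CTR (median -0.07).

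Genes of ferroptosis and glutathione went both ways, 11 higher and 13 lower of 24 (median -0.04). GPX1, the abundant glutathione peroxidase of the cytosol, which GENCODE 29 lists as a polymorphic pseudogene, had 151 FPKM in IM-DSF and 80.0 in IM, with 54.8 in DSF and 50.1 in CTR (1.88-fold over IM, 1.77 to 1.997), and was the member with the largest difference. SLC7A11, the cystine transporter that feeds glutathione synthesis, had 14.3 FPKM in IM-DSF and 7.73 in IM, with 8.38 in DSF and 11.3 in CTR. SAT1, a polyamine acetyltransferase linked to lipid peroxidation, had 12.8 FPKM in IM-DSF and 7.27 in IM, with 4.58 in DSF and 4.23 in CTR. SCD, the desaturase that makes oxidation-resistant fatty acids, was lower, at 93.9 FPKM in IM-DSF and 139 in IM. Among iron genes (10 of 17 higher, median 0.09), ferritin heavy chain FTH1 had 69.3 FPKM in IM-DSF and 45.7 in IM, with 43.4 in DSF and 66.6 in CTR, heme oxygenase HMOX1 had 2.14 and 1.21 in IM-DSF and IM, and the iron exporter SLC40A1 had 4.62 and 3.02. NRF2 targets were split evenly, 10 of 20 higher (median 0.01). Of 18 metal genes 13 were lower (median -0.05), including the copper chaperone COX17 (3.29 FPKM in IM-DSF and 6.27 in IM), which overlaps a neighbor, and the metallothionein MT1E (5.98 and 9.83), both with short transcripts. Among these 18, 14 were lower in DSF minus CTR (median -0.08).

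Sterol genes did not move as 1 list, with 15 of 27 higher (median 0.02). SC5D, sterol C5 desaturase, passed the size rule with 5.67 FPKM in IM-DSF and 1.996 in IM, against 1.73 in DSF and 1.79 in CTR (2.84-fold, 2.36 to 3.40). HMGCS1, at the entry of the pathway, had 11.96 FPKM in IM-DSF and 6.56 in IM, with 11.1 in DSF and 15.7 in CTR, so that IM was the low library. The cholesterol exporter ABCA1 (6.03 FPKM in IM-DSF and 11.4 in IM) and the regulator SREBF1, which overlaps neighbors (3.31 and 6.41), were lower. Of 19 glycolysis genes 14 were lower (median -0.09), and SLC16A1 was the member past the size rule. Pyruvate kinase PKM had 33.1 FPKM in IM-DSF and 42.5 in IM. As many of the 19, 14, were lower in DSF minus CTR (median -0.10).

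Nuclear genes of the respiratory chain were picked by the start of their symbols. That set is wider than the subunits, since assembly factors (NDUFAF) and read-through genes can share those symbols. Of its 82 genes 64 were lower, with a median of -0.20. The size rule was passed downward by 3, against 0.7% higher and 1.04% lower of all genes. For the same 82, DSF minus CTR had 56 lower (median -0.08). Besides NDUFA3, the 3 genes past the rule were ATP5ME, a subunit of ATP synthase (26.7 FPKM in IM-DSF and 55.8 in IM, with 56.8 in DSF and 61.6 in CTR), and the read-through gene NDUFC2-KCTD14 (2.75 and 7.47 FPKM in IM-DSF and IM). The longest transcripts of the 82 genes have a median of 1504 bases, and after centering on length the median was -0.15 and 22 were higher. The centering used wide bins of the longest annotated transcript, which need not be the one expressed. RPL37, for one, is placed at 7686 bases. Whether the lean that remained goes with transcript length was not tested. Mitochondrial ribosomal proteins (53 of 78 lower, median -0.12) and cytosolic ribosomal proteins (53 of 82 lower, median -0.09) had medians of -0.10 and -0.07 after the same centering. DSF minus CTR had 54 of the 78 mitochondrial ones lower (median -0.09) and 26 of the 82 cytosolic ones lower (median 0.08). Of the transcripts made inside the mitochondrion, 8 of 15 were higher (median 0.05), while MT-ND3, a subunit of complex I, had 2094 FPKM in IM-DSF and 3566 in IM and MT-ND6 had 413 and 666.

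**Figure D5:**
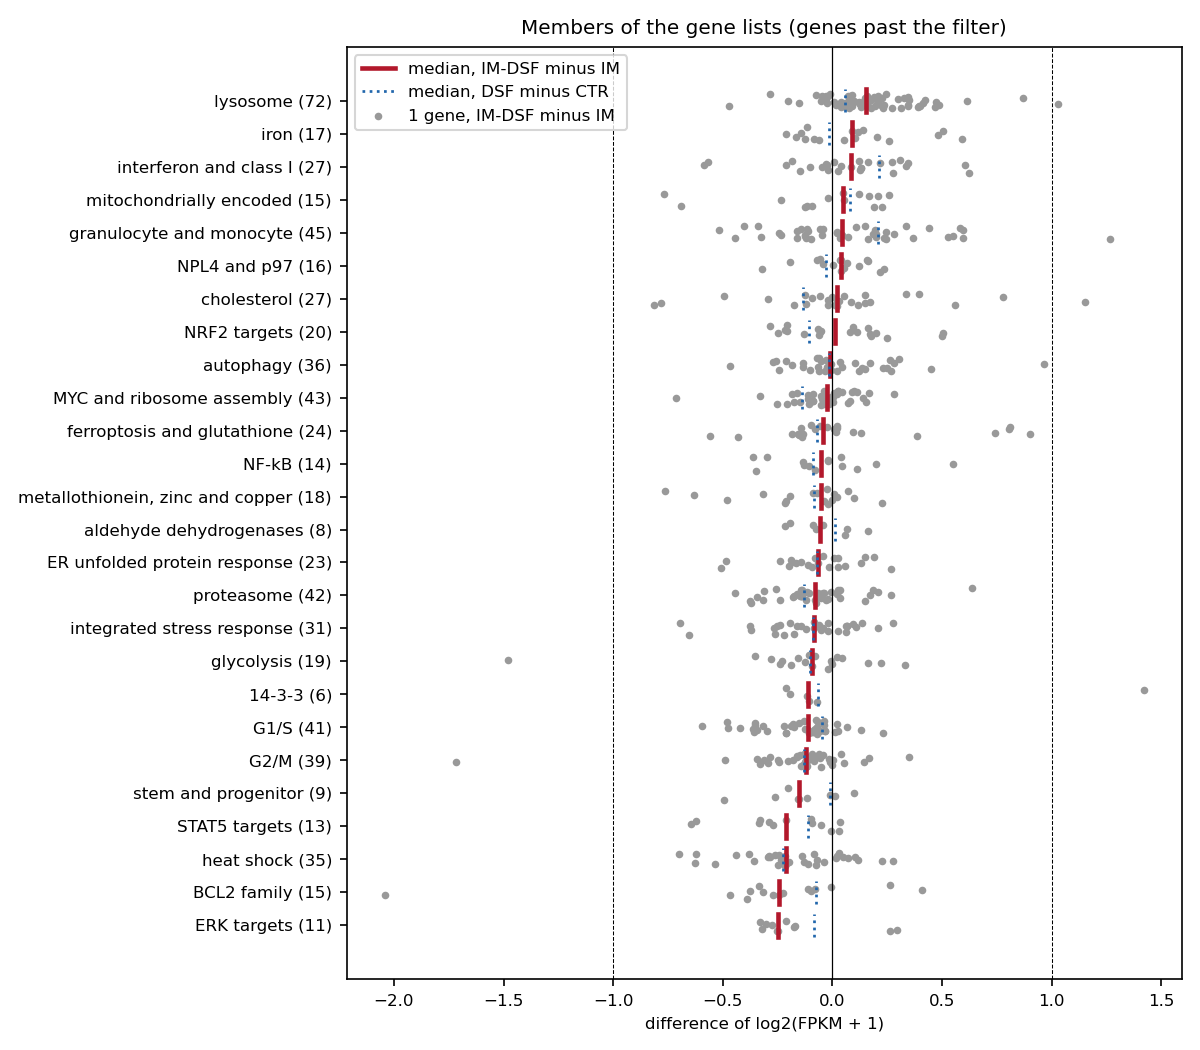
Difference of log2(FPKM + 1), IM-DSF minus IM, for every measured member (gray points) of the gene lists shown (rows, number measured in parentheses). The list median is a solid red bar and the DSF minus CTR median a dotted blue bar, and dashed vertical lines mark 1 log2 unit. The lysosome list has the highest median, 0.15, and the lowest are those of ERK targets (-0.25), the BCL2 family (-0.24), heat shock (-0.21) and STAT5 targets (-0.21), while single genes such as BCL2L11 and MKI67 lie far outside their lists.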

How the data were processed

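The authors deposited 1 table of FPKM values for 50868 genes in 4 columns, 1 per library, per the file headers. The submitters' processing notes name HISAT2 2.0.4 and GRCh38.p14. Which counter, annotation and strand setting were used is not given in the sources used here. Differences of log2(FPKM + 1) were computed with Python 3.11.15, pandas 2.3.3, NumPy 2.4.6 and SciPy 1.17.1 for genes that averaged 1 FPKM or more, and called at 1 log2 unit, which understates the change of low genes. With 1 library a group no test was run. GENCODE 29 matched 50111 identifiers, 47538 with the same coordinates, and gave gene classes, transcript lengths and same-strand overlaps. Single-exon genes gave whole fragments (within 0.05) in 94.2% to 95.1% of cases and so each library's denominator. Approximate fragment numbers then gave exact conditional binomial 95% intervals, which cover counting error only; PCR copies make them too narrow. A fold is a ratio of FPKM.

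Named genes are GPX4, BCR, ABL1, the 20 highest and 20 lowest protein-coding genes past the size rule without same-strand overlap or read-through name, up to 8 overlapping genes a direction, genes past the rule in both pairs, and up to 4 further members of each list; other list members, pseudogenes and markers named in the text were chosen after their values were seen. The members and the 30 gene lists were chosen with earlier results of these data known. In the lists, 6 symbols matched no gene. The interval and the size rule were tried on simulated counts that held counting error alone. That run cannot show how far cultures or libraries vary. Alternatives were a pseudocount of 0.1, other filters, TPM and 2 other scalings, gene subsets, a 1.5-fold rule and, chosen after seeing the data, centering on transcript length and leaving out pseudogenes. A few genes and 1 gene list are not reported here.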

Additional observations from a re-analysis of the deposited data

Results flagged for a closer look

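In 15 genes past the size rule, the difference between IM-DSF and IM ran opposite to that between DSF and CTR, which was also past the rule; with 1 library a group this contrast of differences was not tested. SNX10 (a log2 difference of 1.58 in IM-DSF minus IM) had the opposite sign in DSF minus CTR (-1.40). MAPK14 (-1.40), SZRD1 (-1.496) and ZNF672 (-1.72) were lower in IM-DSF than in IM and higher in DSF than in CTR, by 1.19, 1.38 and 1.5. APOLD1 (-1.61 and 1.55) and BIVM-ERCC5 (-4.66 and 4.35) overlap other genes and are uncertain; BIVM-ERCC5 was listed at 0 in IM-DSF and CTR and had 24.2 FPKM in IM and 19.4 in DSF.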

How the results depend on the processing

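The counts of 77 genes higher and 114 lower by the size rule became 147 and 208 with a pseudocount of 0.1, 24 and 65 of the 5683 genes that averaged 5 FPKM or more, 36 and 26 of 6154 protein-coding genes with no same-strand overlap, and 256 and 398 with a 1.5-fold rule. Leaving out pseudogenes, an alternative chosen after seeing the data, gave 68 higher and 62 lower. The fewer genes compared are one reason in the subsets; otherwise the cause was not tested. The share of called genes that were higher was 40.3% as reported, 58.1% among protein-coding genes with no overlap, 52.3% without pseudogenes, 49.7% after centering on transcript length (86 higher and 87 lower, also chosen after seeing the data) and 27.0% at 5 FPKM or more. The other settings (no filter, a filter on IM-DSF and IM alone, TPM and both other scalings) gave 76 to 111 higher and 101 to 148 lower, and TPM moved the median of all genes to 0.04. Among the named genes ABL1 alone changed sign, with TPM; it lies close to 0 in either setting. List medians crossed or reached 0 in some setting for, among others, autophagy, NRF2 targets, ferroptosis and glutathione, MYC and ribosome assembly, granulocyte and monocyte, stem and progenitor, erythroid, megakaryocyte and lymphoid genes; the lysosome median stayed between 0.14 and 0.20 and that of heat shock between -0.22 and -0.16. No paired analysis was possible because each group has 1 library. Low depth limits genes near 1 FPKM, and 1 library a group limits every statement to these libraries.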

Other observations

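Of 27 genes of the interferon response and antigen presentation by class I molecules, 17 were higher in IM-DSF than in IM (median 0.08), among them UBA7, the activating enzyme for ISG15 (10.6 FPKM in IM-DSF and 6.50 in IM), and TRIM22, an antiviral protein (4.42 and 2.57), both of which overlap neighbors. ISG15 itself was lower, at 1.40 FPKM in IM-DSF and 2.60 in IM, and so was IFI30, a lysosomal thiol reductase that overlaps a neighbor (4.23 and 6.74). Of 14 NF-kB genes 9 were lower (median -0.05), while CXCL8, the neutrophil chemokine interleukin 8, had 7.54 FPKM in IM-DSF and 4.83 in IM, with 4.22 in DSF and 4.86 in CTR (1.56-fold over IM, 95% interval 1.27 to 1.91).

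Of 43 genes of the MYC network and ribosome assembly, 26 were lower (median -0.02). Nucleolar genes were close to level, with 16 of 36 higher, and FBL, fibrillarin, had 69.8 FPKM in IM-DSF and 57.3 in IM. MXI1, a MYC antagonist that overlaps a neighbor, had 3.40 and 6.22 FPKM. Of 9 stem and progenitor genes 7 were lower (median -0.15), with BMI1, a Polycomb subunit that overlaps a neighbor, at 6.35 FPKM in IM-DSF and 9.34 in IM. LMO2, a bridging factor of blood progenitors, had 24.4 and 28.2 FPKM in IM-DSF and IM, with 23.8 in DSF and 9.50 in CTR. Zinc finger genes of the ZNF series, which have long transcripts, had 158 of 285 higher (median 0.03, and 0.01 after centering on length).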
